A study of Mus musculus with 6 samples.

Results

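Amino acids cross the membranes of a cell through carriers of the solute carrier (SLC) families, and the genes of 7 of these families are described here in cultured mouse retinal progenitor cells whose Ifitm3 was knocked down. The members were all rows of the gene table whose symbol begins with Slc1a, Slc3a, Slc6a, Slc7a, Slc36a, Slc38a or Slc43a and ends in a number, which gave 61 of 55401 genes. The SLC1 carriers move glutamate or exchange small neutral amino acids, and many SLC38 and SLC6 carriers draw their substrates in with sodium. The SLC7 family holds carriers of cationic amino acids and light chains, which reach the cell surface bound to a heavy chain of the SLC3 family. Several SLC36 carriers work with protons, some of them at the lysosome, and SLC43 carriers let large neutral amino acids pass down their gradient. In the retina such carriers clear glutamate and glycine from synapses, supply taurine and creatine, and feed dividing cells with glutamine and leucine. Not every member is an amino acid carrier, since Slc6a8 carries creatine, Slc43a3 carries purine nucleobases, and several SLC6 genes encode carriers of monoamines.

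The libraries came from mNRPCs, an adult mouse neural retinal progenitor line that the study's group had established and grew in N2/B27 medium with bFGF and CHIR99021. Cells received a siRNA against Ifitm3 with a lipid reagent (3 libraries, labelled Ifitm) or were controls (3 libraries, labelled Control). They were harvested at about 48 h for poly(A) RNA sequencing. The controls are called control siRNA here, but their treatment label reads only control. The study used both a blank control and a scramble siRNA control, and its RNA-seq methods do not say which was sequenced. Only 1 Ifitm3 siRNA is described, and the sources used here give no genotype or strain. The labels do not say whether replicates came from separate cultures, so p-values reflect only how far these libraries scatter, and that scatter may be technical.

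The knockdown was visible in every library. Ifitm3, an interferon-induced membrane protein that restricts the entry of viruses, had 349.7, 546 and 398 FPKM in the Ifitm3 siRNA libraries, against 3121, 2120 and 2509 FPKM in the control siRNA libraries. Its log2 fold change was -2.59 (SE 0.23, adjusted p = 0.1001 from limma). FPKM are fragments scaled to transcript length and library size, so levels can be set side by side between genes, while the depth of each library is unknown. The libraries held between 11966 and 12274 genes at 1 FPKM or more. Replicate 2 of each group stood apart from the others on the first principal component, which took 37.1% of the variance, and the groups separated on the second, with 22.3%. Of 10 progenitor markers, Pax6 (8.39 to 13.7 FPKM over the 6 libraries), Six3 (7.71 to 11.9 FPKM), Sox2 and Nes were expressed, but the retina-defining genes Rax and Six6 were at 0 in every library. The Müller glia list summed to between 35.1 and 41.6 FPKM in the Ifitm3 siRNA libraries, above the 26.4 to 32.8 FPKM of the control siRNA libraries. That sum came mostly from Glul, Clu and Apoe, while the glial markers Rlbp1, Kcnj10 and Car14 did not exceed 0.12 FPKM. The glial water channel Aqp4 had 0.21, 2.60 and 0.48 FPKM with the Ifitm3 siRNA, against 0.13, 0.86 and 0.17 FPKM with the control siRNA, and was highest in replicate 2 of each group. The list of pericytes and fibroblasts summed to between 12.9 and 27.1 FPKM with the Ifitm3 siRNA and between 22.0 and 43.4 FPKM with the control siRNA. These sums overlapped and came almost wholly from Acta2 and Pdgfrb. The other genes of the list, Col1a1, Col1a2, Dcn, Lum, Thy1 and Rgs5, did not exceed 0.38 FPKM. The part of these cell markers in the results below was not tested, and in bulk RNA fewer cells of a type and less RNA per cell cannot be told apart.

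A small set of carriers made up most of the signal. Of the 61 members, 13 were listed at 0 in all 6 libraries, 20 more had a mean under 0.1 FPKM and 8 had a mean of 0.1 to 0.5 FPKM. The remaining 20 passed the filter used for testing, an average FPKM of 0.5 or more across the 6 libraries. Just inside that limit was Slc43a3 with a mean of 0.607 FPKM, and just outside it Slc38a3 with 0.425 FPKM. The highest members were Slc3a2, Slc7a5, Slc6a6, Slc38a2 and Slc1a5, with means of 68.7, 34.2, 33.0, 24.4 and 20.7 FPKM over all libraries. Together these 5 genes carried 68.2, 62.5 and 64.6% of the summed FPKM of all members in the Ifitm3 siRNA libraries, against 71.0, 65.4 and 73.1% in the control siRNA libraries. The rank of Slc3a2 among all genes of the table was 706, and that of Slc7a5 was 1523. The order of the neighbours Slc7a5 and Slc6a6, and of Slc38a2 and Slc1a5, was within the spread of the libraries. The bulk of the carrier RNA thus belonged to a heavy chain, its leucine-carrying partner, a taurine carrier and carriers of glutamine and other small neutral amino acids.

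**Figure D1:**
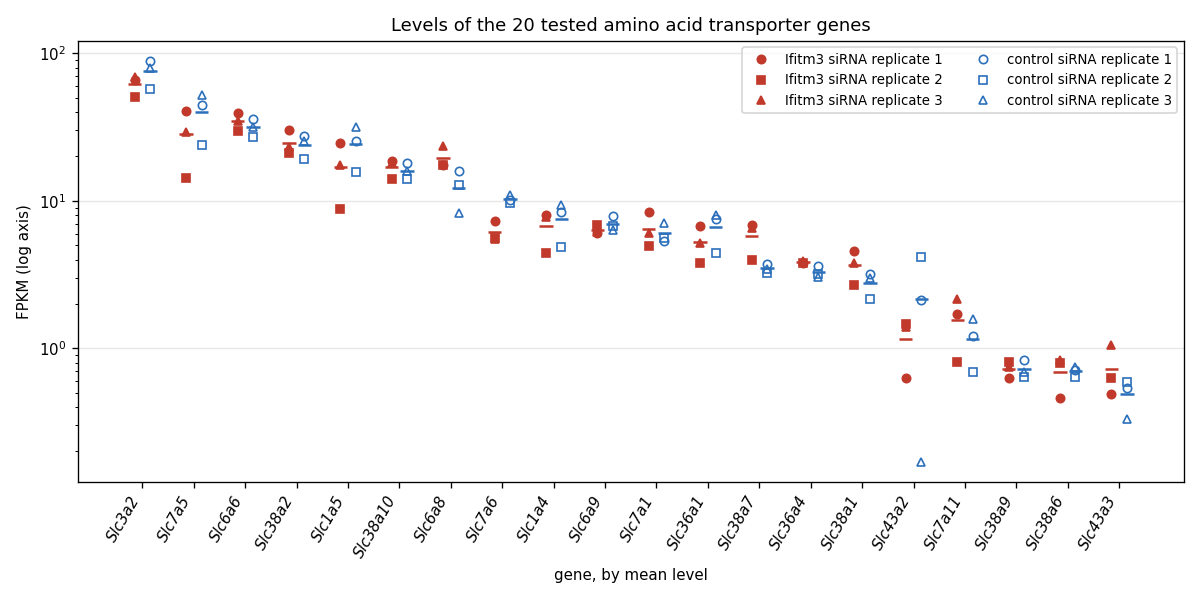
FPKM (log axis) of the 20 tested members in each library, ordered by mean level. Filled red symbols are the 3 Ifitm3 siRNA libraries and open blue symbols the 3 control siRNA libraries, with circles, squares and triangles for replicates 1, 2 and 3 and a bar at each group's mean. The levels run from Slc3a2 (50.4 to 89.2 FPKM) down to Slc43a3 (0.33 to 1.06 FPKM), and in most genes the groups overlap.

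The comparison asked which carriers were higher or lower once Ifitm3 was lowered. Slc38a7 and Slc6a8 were higher and Slc7a6 was lower at an unadjusted p under 0.05 in limma, each by less than 1 on the log2 scale. None of them passed adjustment, and most of the abundant carriers did not separate the groups. Fold changes are differences of mean log2(FPKM + 0.1), which understates the change of low genes, and they were tested with limma over the 13588 genes that passed the filter. At an unadjusted p under 0.05, 2 of the 20 tested members were higher and 1 was lower, where 5.32% of all genes tested were higher and 3.37% lower. That is a split of 723 higher and 458 lower over all genes, which became 497 higher and 654 lower with median-ratio scaling and 513 higher and 604 lower with quantile normalization, while the 3 members kept their direction and stayed under 0.05. At the thresholds the study used, which add an absolute log2 fold change over 1, the count of members was 0, against 1.43% of all genes. After Benjamini-Hochberg adjustment limma also called 0 members, against 0.00736% of all genes (1 gene), and the smallest adjusted p of a member was 0.376.

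Of the 20 tested members, the log2 fold change was positive in 11 and negative in 9, and its median was 0.03, against 0.04 over all genes tested. The median absolute log2 fold change was 0.25 for the members and 0.19 over all genes. The 3 Ifitm3 siRNA values lay above all 3 control siRNA values for 3 members (Slc38a7, Slc6a8 and Slc36a4), where 9.96% of all genes did so. They lay below them for 1 member (Slc7a6), where 5.69% of all genes did so, and the groups overlapped for the other 16. An exact two-sided permutation test of 3 against 3 libraries cannot give a p below 0.1, so single genes were judged by limma alone. The counts of called and separated members were thus few and near the shares of all genes.

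**Figure D2:**
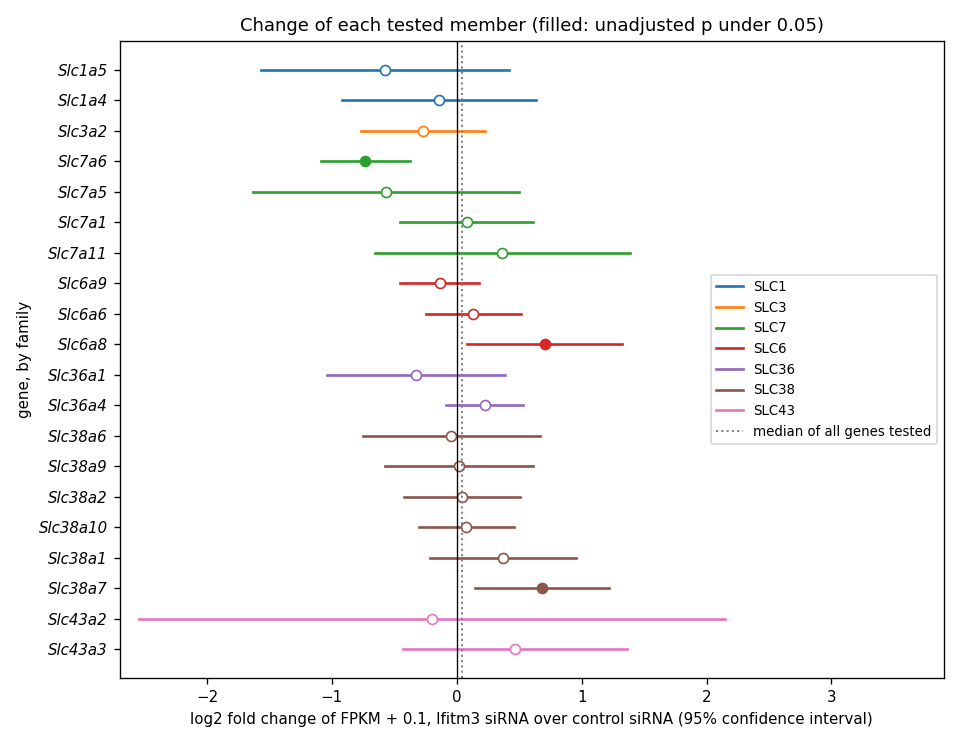
Log2 fold change (Ifitm3 siRNA over control siRNA, on FPKM + 0.1) of each tested member with its 95% confidence interval, grouped and coloured by family. Filled points have an unadjusted p under 0.05 in limma, which holds for Slc7a6 (-0.73), Slc6a8 (0.70) and Slc38a7 (0.68), and the dotted line is the median of all genes tested (0.04).

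The member with the smallest p was a light chain. Slc7a6, which exports arginine in exchange for glutamine and other neutral amino acids, lies on chr8:106168857-106198706 (plus strand, GRCm38). It had 7.35, 5.60 and 5.54 FPKM in the Ifitm3 siRNA libraries, against 10.2, 9.62 and 10.9 FPKM in the control siRNA libraries. All 3 Ifitm3 siRNA values were below the lowest control value, and the control values lay close together. The means were 6.16 ± 1.03 FPKM and 10.2 ± 0.631 FPKM (SD, n = 3 each), a log2 fold change of -0.73 (SE 0.15, 95% confidence interval -1.09 to -0.37, adjusted p = 0.376 from limma). This gene kept an unadjusted p under 0.05 in all 15 alternative analyses, with log2 fold changes between -0.86 and -0.66 and adjusted p between 0.322 and 0.843.

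The RNA of the other light chains did not separate the groups. Slc7a5, which brings in leucine and other large neutral amino acids in exchange for glutamine, had 41.0, 14.3 and 29.2 FPKM in the Ifitm3 siRNA libraries, against 44.7, 23.8 and 52.4 FPKM in the control siRNA libraries. Replicate 2 was the lowest library of each group, and the fold change of -0.56 had a wide interval (-1.63 to 0.50, adjusted p = 0.735 from limma). Slc7a11, the light chain that exchanges cystine for glutamate and so feeds glutathione synthesis, had 1.71, 0.81 and 2.16 FPKM in the Ifitm3 siRNA libraries, against 1.22, 0.69 and 1.57 FPKM in the control siRNA libraries. Its log2 fold change was 0.37 (SE 0.43, adjusted p = 0.820 from limma), and it too was lowest in replicate 2 of each group. The cationic carrier Slc7a1, which takes up arginine and lysine without a heavy chain, had 8.39, 4.91 and 6.08 FPKM with the Ifitm3 siRNA, against 5.33, 5.60 and 7.09 FPKM with the control siRNA. Its groups overlapped fully, with a log2 fold change of 0.08 (SE 0.22, adjusted p = 0.934 from limma).

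Their shared heavy chain, Slc3a2 (CD98), anchors these light chains in the plasma membrane and was the most abundant member. It had 66.2, 50.4 and 69.2 FPKM in the Ifitm3 siRNA libraries, against 89.2, 57.6 and 79.3 FPKM in the control siRNA libraries. The control library of replicate 2 was below 2 of the 3 Ifitm3 siRNA libraries, and the log2 fold change was -0.27 (SE 0.21, adjusted p = 0.725 from limma). Without that control library it was -0.45 and passed an unadjusted p of 0.05 (adjusted p = 0.457 from limma). The ratio of Slc7a6 to Slc3a2 was 0.111, 0.111 and 0.0800 in the Ifitm3 siRNA libraries, against 0.114, 0.167 and 0.137 in the control siRNA libraries, so the groups were separated by a narrow gap. The ratio of Slc7a5 to Slc3a2 was 0.618, 0.285 and 0.422 with the Ifitm3 siRNA, against 0.502, 0.413 and 0.660 with the control siRNA, and these groups overlapped. In both groups Slc7a5 was thus the main light chain RNA, at 2.56 to 5.57 times the level of Slc7a6 with the Ifitm3 siRNA and 2.48 to 4.82 times with the control siRNA.

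Among the SLC38 carriers, a lysosomal one was higher at an unadjusted p under 0.05 in limma, though not after adjustment. Slc38a7, which in human cells carries glutamine and asparagine out of the lysosome, lies on chr8:95835920-95853539 (minus strand, GRCm38). It had 6.85, 3.97 and 6.55 FPKM in the Ifitm3 siRNA libraries, against 3.71, 3.26 and 3.47 FPKM in the control siRNA libraries. The lowest Ifitm3 siRNA value, that of replicate 2, was just above the highest control value. The means were 5.79 ± 1.58 FPKM and 3.48 ± 0.225 FPKM (SD, n = 3 each), a log2 fold change of 0.68 (SE 0.22, 95% confidence interval 0.14 to 1.22, adjusted p = 0.520 from limma). It no longer passed an unadjusted p of 0.05 in limma without replicate 2 of the control siRNA (log2 fold change 0.64), without replicate 1 of the Ifitm3 siRNA (0.54) or without replicate 3 of the Ifitm3 siRNA (0.57). With both replicate 2 libraries left out it passed, with a log2 fold change of 0.88 (adjusted p = 0.296 from limma).

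The other 5 tested members of the family had p-values over 0.05. Slc38a2, the sodium-coupled carrier of alanine and glutamine that cells induce when amino acids run short, had 30.0, 21.2 and 23.2 FPKM in the Ifitm3 siRNA libraries, against 27.6, 19.3 and 25.3 FPKM in the control siRNA libraries. Its log2 fold change of 0.04 (SE 0.19, 95% confidence interval -0.42 to 0.51) changed sign under median-ratio scaling. Slc38a1, a close relative with the same kind of substrates, had 4.54, 2.67 and 3.77 FPKM with the Ifitm3 siRNA, against 3.18, 2.15 and 3.01 FPKM with the control siRNA. Replicate 2 was again lowest on each side, and the log2 fold change was 0.37 (SE 0.25, adjusted p = 0.691 from limma), or 0.58 without replicate 2 of the Ifitm3 siRNA, where it passed an unadjusted p of 0.05. Slc38a10 had 18.5, 14.1 and 18.2 FPKM in the Ifitm3 siRNA libraries, against 17.9, 14.1 and 16.0 FPKM in the control siRNA libraries, a log2 fold change of 0.08 (SE 0.16). Slc38a9, which reports lysosomal arginine to mTORC1 in human cells, and Slc38a6 were low, between 0.63 and 0.83 FPKM and between 0.46 and 0.83 FPKM over the 6 libraries. Their log2 fold changes were 0.02 (SE 0.25) for Slc38a9 and -0.05 (SE 0.30) for Slc38a6. Slc38a7 was thus the 1 member of this family that passed an unadjusted p of 0.05.

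Of the SLC6 family, the creatine carrier was higher at an unadjusted p under 0.05 in limma, though not after adjustment. The carriers of taurine and glycine did not pass the test. Slc6a8 lies on chrX:73673150-73682502 (plus strand, GRCm38) and had 17.5, 17.6 and 23.6 FPKM in the Ifitm3 siRNA libraries, against 15.9, 12.8 and 8.23 FPKM in the control siRNA libraries. The groups did not overlap, and each held its extreme value in replicate 3. The means were 19.6 ± 3.48 FPKM and 12.3 ± 3.84 FPKM (SD, n = 3 each), a log2 fold change of 0.70 (SE 0.26, 95% confidence interval 0.08 to 1.32, adjusted p = 0.542 from limma). It no longer passed an unadjusted p of 0.05 in limma without replicate 3 of the control siRNA (log2 fold change 0.44), without replicate 3 of the Ifitm3 siRNA (0.56) or without both replicate 2 libraries (0.82). The Müller glia marker Clu had its highest and lowest values in the same libraries, with 14.4, 11.2 and 19.7 FPKM with the Ifitm3 siRNA, against 12.4, 11.9 and 7.13 FPKM with the control siRNA. The other tested genes of that list, Glul, Aqp4 and Apoe, were each highest in replicate 2 of the Ifitm3 siRNA instead. Glul had 16.77, 17.69 and 16.35 FPKM with the Ifitm3 siRNA, against 15.14, 15.68 and 16.94 FPKM with the control siRNA.

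Slc6a6, which concentrates taurine, an amino acid that retinal cells need to survive, had 39.1, 29.6 and 35.0 FPKM in the Ifitm3 siRNA libraries, against 35.6, 27.1 and 31.8 FPKM in the control siRNA libraries. The groups overlapped, and the log2 fold change was 0.13 (SE 0.16, adjusted p = 0.827 from limma). Slc6a9, which clears glycine from synapses and in the retina belongs to glycine-releasing amacrine cells, had 6.01, 6.81 and 6.15 FPKM with the Ifitm3 siRNA, against 7.85, 6.75 and 6.33 FPKM with the control siRNA. Its log2 fold change was -0.14 (SE 0.13, adjusted p = 0.779 from limma). The gene overlaps B4galt2 and Ccdc24 on the opposite strand, and the sources used here do not say whether the authors' quantification used the strand.

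In the SLC1 family the neutral exchangers Slc1a5 and Slc1a4 were the members that passed the filter. Slc1a5, which exchanges glutamine for other small neutral amino acids and feeds dividing cells, had 24.8, 8.87 and 17.4 FPKM in the Ifitm3 siRNA libraries, against 25.5, 15.8 and 31.6 FPKM in the control siRNA libraries. Its log2 fold change of -0.58 had a 95% confidence interval of -1.57 to 0.41 (adjusted p = 0.713 from limma), and replicate 2 was far below the others on each side. Slc1a4, which exchanges alanine, serine and cysteine, had 8.03, 4.46 and 7.80 FPKM with the Ifitm3 siRNA, against 8.34, 4.83 and 9.35 FPKM with the control siRNA. It followed the same order of libraries, with a log2 fold change of -0.14 (SE 0.32) whose sign turned when replicate 2 of the Ifitm3 siRNA (0.13) or replicate 3 of the control siRNA (0.04) was left out. The glutamate carriers Slc1a3 and Slc1a2, by which Müller glia and astrocytes clear glutamate, were near 0. Slc1a3 had 0.14, 0.12 and 0.13 FPKM in the Ifitm3 siRNA libraries, against 0.05, 0.14 and 0.11 FPKM in the control siRNA libraries, and Slc1a2 did not exceed 0.12 FPKM.

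The proton-coupled Slc36a1, which moves small neutral amino acids across lysosomal and plasma membranes, had 6.77, 3.77 and 5.19 FPKM in the Ifitm3 siRNA libraries, against 7.49, 4.40 and 8.01 FPKM in the control siRNA libraries. Its groups overlapped, with a log2 fold change of -0.33 (SE 0.30, adjusted p = 0.764 from limma). Slc36a4, a carrier of proline and tryptophan, had 3.80, 3.80 and 3.88 FPKM with the Ifitm3 siRNA, against 3.59, 3.19 and 3.03 FPKM with the control siRNA. Its groups did not overlap, but the gap was small, and the log2 fold change of 0.22 (SE 0.13) did not pass the test (adjusted p = 0.650 from limma). Slc43a2, a carrier of branched-chain and aromatic amino acids, had 0.63, 1.46 and 1.40 FPKM with the Ifitm3 siRNA, against 2.14, 4.16 and 0.17 FPKM with the control siRNA. The control libraries alone spanned the whole range, so the log2 fold change of -0.20 had an SE of 0.98. Without replicate 3 of the control siRNA it was -1.37 and passed an unadjusted p of 0.05 (adjusted p = 0.82 from limma), so that 1 library decides this value. Slc43a3, the nucleobase carrier, had 0.49, 0.63 and 1.06 FPKM with the Ifitm3 siRNA, against 0.54, 0.59 and 0.33 FPKM with the control siRNA, and did not pass the test (log2 fold change 0.47, SE 0.38).

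The 41 members below the filter included the genes that mark specialised transport. Among the 8 with a mean of 0.1 to 0.5 FPKM, Slc38a3, the glutamine carrier of glia and liver, had 0.10, 0.52 and 0.44 FPKM in the Ifitm3 siRNA libraries, against 0.30, 0.95 and 0.24 FPKM in the control siRNA libraries. Slc7a3, a cationic carrier of neurons, had 0.20, 0.54 and 0.48 FPKM with the Ifitm3 siRNA, against 0.27, 0.16 and 0.21 FPKM with the control siRNA. The heavy chain partners Slc7a7 and Slc7a8 stayed at or under 0.25 and 0.31 FPKM, and Slc7a4, Slc38a4, Slc6a17 and Slc1a3 made up the rest of this set. The light chain Slc7a13 reached 0.32 FPKM in 1 control library and 0.02 FPKM or less in every Ifitm3 siRNA library, and Slc3a1, the kidney heavy chain, did not exceed 0.13 FPKM. The serotonin and noradrenaline carriers Slc6a4 and Slc6a2 were listed at 0 throughout. Also at 0 in every library were Slc6a7, Slc6a12, Slc6a14, Slc6a18, Slc6a21, Slc7a9, Slc7a12, Slc36a2, Slc36a3, Slc38a8 and Slc38a11. These members were left out of the main test.

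Many members also varied with the replicate number. In 11 of the 20 tested members replicate 2 was the lowest library of both groups, where 25.6% of all genes tested showed this order. The pattern was chosen after the values had been seen. It took in the abundant Slc3a2, Slc7a5, Slc6a6, Slc38a2 and Slc1a5. In replicate 2 of the Ifitm3 siRNA, 13 of the 20 tested members were below their own mean over the 6 libraries, against 47.9% of all genes tested, with a median deviation of -0.20 on the log2(FPKM + 0.1) scale. In replicate 2 of the control siRNA 16 were below it, against 56.3% of all genes, with a median of -0.24. Over all genes tested the median deviations of these libraries were 0.02 and -0.04. Slc6a8 and Slc7a6 did not share the order. For Slc7a5 the means were 28.2 ± 13.3 FPKM with the Ifitm3 siRNA and 40.3 ± 14.8 FPKM with the control siRNA, and for Slc1a5 17.0 ± 7.95 FPKM and 24.3 ± 7.99 FPKM (SD, n = 3 each). These SDs include the low replicate 2 libraries.

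**Figure D3:**
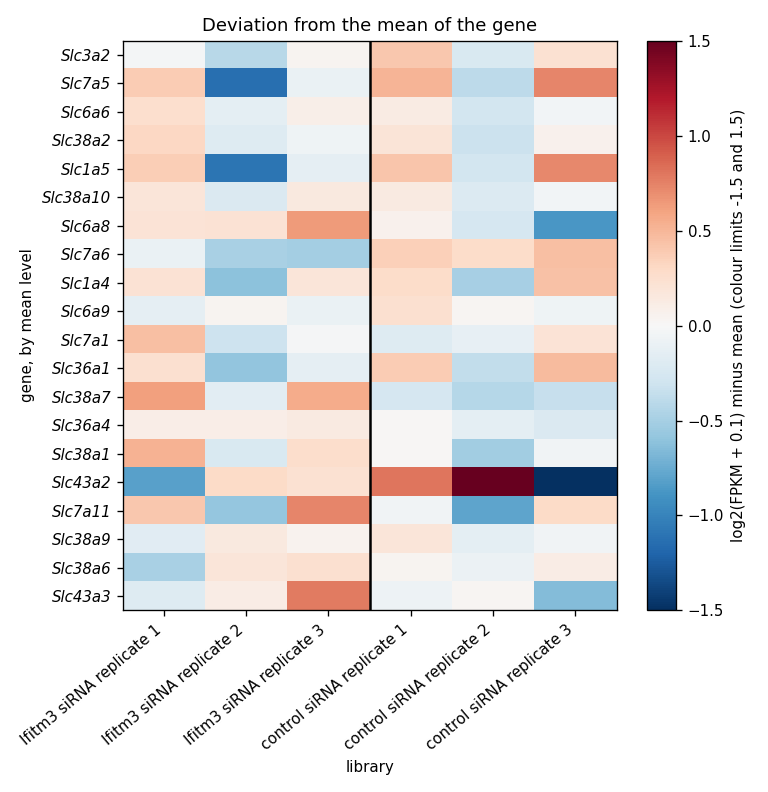
Deviation of each tested member (rows, by mean level) from its own mean over the 6 libraries on the log2(FPKM + 0.1) scale, red above and blue below, with the Ifitm3 siRNA libraries left of the line and the control siRNA libraries right of it. The replicate 2 columns are mostly blue (13 and 16 of 20 members below their mean), Slc7a6 is blue on the left and red on the right, and Slc38a7 is mostly the reverse.

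Summed over all 61 members, the carriers reached 295, 199 and 269 FPKM in the Ifitm3 siRNA libraries, against 314, 220 and 302 FPKM in the control siRNA libraries. The means were 254 ± 49.6 FPKM and 278 ± 51.3 FPKM (SD, n = 3 each), so the difference was smaller than the spread of either group. That spread includes the low replicate 2 libraries. At each replicate number the Ifitm3 siRNA sum was the lower one, but the numbers were not taken to pair the libraries. The SLC38 genes held 20.8, 22.2 and 20.0% of this sum with the Ifitm3 siRNA, against 17.4, 18.8 and 16.5% with the control siRNA. The SLC6 genes held 21.4, 27.3 and 24.1% with the Ifitm3 siRNA, against 19.0, 21.3 and 15.4% with the control siRNA. The SLC3 genes held 22.5, 25.4 and 25.7% with the Ifitm3 siRNA, against 28.5, 26.3 and 26.3% with the control siRNA. These 3 shares did not overlap between the groups, with SLC38 and SLC6 higher and SLC3 lower in the Ifitm3 siRNA libraries. The nearest values were 21.4 against 21.3% for SLC6 and 25.7 against 26.3% for SLC3, so these gaps were narrow. The summed FPKM of each of these families overlapped between the groups. Such shares are tied to each other, since the shares of all families add up to the whole. The sum of the SLC7 genes was 59.3, 26.8 and 44.2 FPKM with the Ifitm3 siRNA, against 62.7, 40.6 and 73.3 FPKM with the control siRNA, and followed the order of Slc7a5. The sum of the SLC1 genes was 33.0, 13.6 and 25.5 FPKM with the Ifitm3 siRNA, against 34.0, 20.9 and 41.2 FPKM with the control siRNA. No test was run on these sums.

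**Figure D4:**
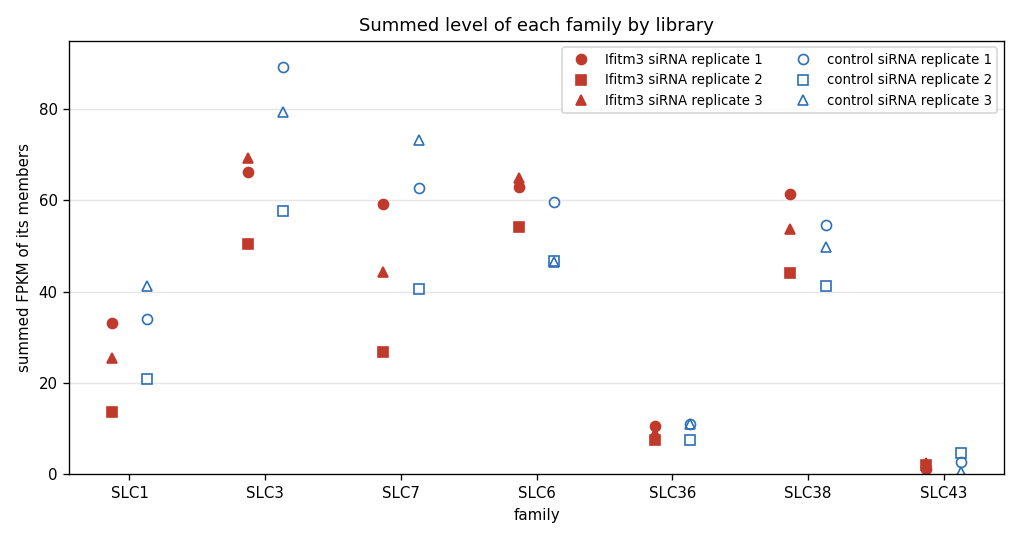
Summed FPKM of the members of each family in each library, with Ifitm3 siRNA libraries (filled, red) left of control siRNA libraries (open, blue) and circles, squares and triangles for replicates 1, 2 and 3. Replicate 2 is the lowest library on each side in SLC1, SLC3, SLC7, SLC36 and SLC38, and the sums of the groups overlap in every family.

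The promoters of the members were read for 2 motifs. TGATGNAA is the core of the element that ATF4, the transcription factor of the amino acid response, binds with C/EBP proteins, and CACGTG is the E-box that MYC and the lysosomal regulators TFEB and TFE3 can bind. The windows were those of RefSeq on GRCm38.p6, from 250 bases before to 50 bases after an annotated start, read on both strands. Windows were found for 43 members, 14 of them tested, but not for Slc7a5, Slc6a6, Slc1a5 or Slc6a8. The ATF4 element stood in 5 of 64 member windows, against 3.97% of all 32851 windows, and the E-box in 9 of 64, against 7.15% of all. Among the tested members the element stood in Slc7a11 and Slc1a4 and the E-box in Slc38a7 and Slc36a1. Their motifs are shown in capitals with 18 bases on either side, on the strand of the gene.
Slc7a11, chr3:50443635-50443697 (minus strand), a pair of ATF4 elements in opposite directions: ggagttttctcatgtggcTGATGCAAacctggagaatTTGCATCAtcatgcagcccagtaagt
Slc1a4, chr11:20332692-20332735 (minus strand), an ATF4 element: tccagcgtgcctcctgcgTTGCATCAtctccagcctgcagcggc
Slc36a1, chr11:55204291-55204360 (plus strand), a pair of E-boxes: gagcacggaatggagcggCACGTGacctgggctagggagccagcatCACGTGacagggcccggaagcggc
Slc38a7, chr8:95853502-95853543 (minus strand), an E-box: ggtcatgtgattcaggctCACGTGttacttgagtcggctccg
For Slc7a6, the member with the smallest p, neither motif stood in its windows, of which the first is chr8:106168604-106168903 (plus strand).
Slc7a6: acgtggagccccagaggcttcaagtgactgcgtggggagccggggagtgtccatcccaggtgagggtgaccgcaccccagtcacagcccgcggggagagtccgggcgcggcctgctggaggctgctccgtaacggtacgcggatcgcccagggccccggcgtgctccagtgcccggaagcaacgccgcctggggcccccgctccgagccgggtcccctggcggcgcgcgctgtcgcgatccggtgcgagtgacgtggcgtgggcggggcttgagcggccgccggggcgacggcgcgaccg
The genes with the ATF4 element (Slc7a11, 0.37, and Slc1a4, -0.14) had log2 fold changes of opposite sign, as had those with the E-box (Slc38a7, 0.68, and Slc36a1, -0.33). A match is a description of the letters and was not tied to binding.

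Genes that work beside the carriers were counted in 6 lists, none with a member past an adjusted p of 0.05 in limma. Of 5 tested carriers of other families, 1 was higher at an unadjusted p under 0.05, and the median log2 fold change was 0.33. It was Slc15a4, which carries histidine and peptides out of lysosomes, with 4.49, 5.35 and 5.37 FPKM in the Ifitm3 siRNA libraries, against 3.73, 3.87 and 3.92 FPKM in the control siRNA libraries (log2 fold change 0.39, adjusted p = 0.520 from limma). Ctns, which carries cystine out of lysosomes, had 7.64, 11.7 and 8.68 FPKM with the Ifitm3 siRNA, against 7.75, 6.44 and 2.54 FPKM with the control siRNA, and did not pass the test (adjusted p = 0.601 from limma). Of 6 tested carrier partner proteins, 1 was higher at that threshold, again beside 5.32% of all genes tested. It was Arl6ip5, an endoplasmic reticulum protein that restrains the glutamate carrier Slc1a1, with 93.1, 95.0 and 105 FPKM with the Ifitm3 siRNA, against 76.7, 72.1 and 86.2 FPKM with the control siRNA (adjusted p = 0.558 from limma). Slc1a1 itself did not exceed 0.01 FPKM in any library.

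All 26 genes of amino acid sensing upstream of mTORC1 were tested, with a median log2 fold change of 0.07 against 0.04 over all genes. At an unadjusted p under 0.05 limma called 3 of them higher and 0 lower, against 5.32% and 3.37% of all genes. Lamtor3, a part of the Ragulator complex that holds the Rag GTPases at the lysosome, had 23.7, 21.7 and 23.6 FPKM in the Ifitm3 siRNA libraries, against 18.2, 16.6 and 17.5 FPKM in the control siRNA libraries (log2 fold change 0.40, SE 0.11, adjusted p = 0.471 from limma). Rragb, a Rag GTPase, had 3.86, 3.54 and 3.64 FPKM with the Ifitm3 siRNA, against 2.74, 2.05 and 3.05 FPKM with the control siRNA (log2 fold change 0.50, adjusted p = 0.537 from limma). Fnip2, a partner of folliculin, which acts on the Rag GTPases, was the other (log2 fold change 0.44, adjusted p = 0.520 from limma). These 3 were named for their small p. That p came from the same values, so their lack of overlap between the groups is not a separate result.

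The 25 genes of ATF4, its regulators and its targets were all tested, with a median log2 fold change of -0.17, and limma called 2 of them higher and 2 of them lower at an unadjusted p under 0.05. Ppp1r15a, which lets translation resume after stress, had 25.5, 51.4 and 26.5 FPKM in the Ifitm3 siRNA libraries, against 13.3, 23.9 and 10.8 FPKM in the control siRNA libraries (log2 fold change 1.11, adjusted p = 0.520 from limma). Ddit3, a stress-induced transcription factor, had 55.6, 81.1 and 68.6 FPKM with the Ifitm3 siRNA, against 49.4, 50.1 and 37.9 FPKM with the control siRNA (log2 fold change 0.57, adjusted p = 0.518 from limma). Ddit4, an inhibitor of mTORC1, had 18.9, 36.2 and 17.0 FPKM with the Ifitm3 siRNA, against 58.5, 48.6 and 35.0 FPKM with the control siRNA (log2 fold change -1.03, adjusted p = 0.506 from limma). The serine synthesis gene Psph was the other lower one (log2 fold change -0.40, adjusted p = 0.549 from limma). Atf4 itself had 149, 116 and 107 FPKM with the Ifitm3 siRNA, against 76.5, 130 and 166 FPKM with the control siRNA, and its groups overlapped. Phgdh, Asns and Psat1, which make serine and asparagine, were lowest in replicate 2 of each group, as Slc7a5 and Slc1a5 were. Of all genes tested, 25.6% showed this order, and these genes were named after their values were seen. For example, Phgdh had 311, 129 and 218 FPKM with the Ifitm3 siRNA, against 371, 268 and 409 FPKM with the control siRNA (adjusted p = 0.598 from limma). Other genes of the list went the other way, such as Ppp1r15a and Nupr1, both highest in replicate 2 of each group. Nupr1 had 341, 1902 and 342 FPKM with the Ifitm3 siRNA, against 210, 1230 and 231 FPKM with the control siRNA.

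Of 20 cytosolic aminoacyl-tRNA synthetases, the enzymes that load amino acids onto tRNA, limma called 0 of them higher and 2 of them lower at an unadjusted p under 0.05, with a median log2 fold change of -0.09. Wars, the tryptophan enzyme, had 11.5, 8.00 and 8.95 FPKM in the Ifitm3 siRNA libraries, against 19.2, 11.2 and 22.5 FPKM in the control siRNA libraries (log2 fold change -0.84, adjusted p = 0.520 from limma). Kars, the lysine enzyme, had 49.9, 33.7 and 43.7 FPKM with the Ifitm3 siRNA, against 59.5, 50.7 and 59.9 FPKM with the control siRNA (log2 fold change -0.43, adjusted p = 0.570 from limma). The 7 tested genes of glutathione synthesis and use had a median of 0.01. At the same threshold limma called 0 of them higher and 1 of them lower, beside the same shares of all genes. Gpx4, which reduces lipid peroxides with glutathione, had 149, 202 and 137 FPKM with the Ifitm3 siRNA, against 236, 272 and 235 FPKM with the control siRNA (log2 fold change -0.62, adjusted p = 0.475 from limma). The synthetic enzyme Gclc, downstream of the cystine that Slc7a11 brings in, did not pass the test (log2 fold change 0.22, adjusted p = 0.805 from limma).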

How the data were processed

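The values analysed were FPKM per gene and library, which the authors deposited rounded to 2 decimals. Tools named in the submitters' processing notes were StringTie 1.3.4d, HISAT2 2.0.4 and cutadapt 1.9, and the build named was hg18, which is human, although the gene identifiers are those of mouse. Of the 61 members, 61 had an identifier in GENCODE vM21 (GRCm38), from which positions were taken. Read depth is unknown, so no counting error is given. The 13588 genes averaging 0.5 FPKM or more were compared on log2(FPKM + 0.1) by limma 3.58.1 in R 4.3.3, two-sided, with condition as the only term and a mean-variance trend. P-values were adjusted over these genes by the Benjamini-Hochberg method. The fit was also run on simulated data with independent noise in each library, which do not hold the replicate 2 pattern seen here. Other steps used Python 3.11.15.

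Members and lists were chosen with earlier results of these data known. Genes named by rule were Ifitm3, members with an unadjusted p under 0.05 or an absolute log2 fold change over 1, the 15 most abundant members, Slc3a2 with its tested light chains, and up to 3 genes per list with the smallest p. The other members, Psph, Atf4, Phgdh, Asns, Psat1, Nupr1, Clu and the other cell markers given by name were named after their values were seen. Alternatives were other pseudocounts, filters, scalings and trends, a replicate block, and leaving out libraries. Values of some single genes are not reported here.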

Additional observations from a re-analysis of the deposited data

How the results depend on the processing

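Under 15 alternatives, 220 of 240 log2 fold changes of the 16 members named by rule kept their direction and their side of an unadjusted p of 0.05, 7 lost that threshold, 5 gained it and 8 changed sign, and 12 of the 16 members never changed sign. The count of members past an adjusted p of 0.05 in limma was 0 in every alternative. With the replicate block, 3 members were lower at an unadjusted p under 0.05, namely Slc7a6, Slc7a5 and Slc1a5, while Slc38a1 gained that threshold and Slc6a8 lost it. The numbers were not taken to pair the samples, since deviations of same-numbered libraries correlated at 0.0697, 0.433 and 0.0350. Replicates 1 and 3 of the Ifitm3 siRNA correlated best with replicates 3 and 1 of the control siRNA. Leaving out 1 library at a time, the members higher at an unadjusted p under 0.05 numbered from 0 to 3, those lower from 1 to 2, and those lower at the thresholds of the study from 0 to 1 (Slc43a2). Without both replicate 2 libraries, 1 member was higher. With 1 library left out, the log2 fold change ranged from -0.11 to 0.15 for Slc38a2, from -0.0098 to 0.20 for Slc38a10, from -0.43 to 0.13 for Slc1a4 and from -0.12 to 0.26 for Slc7a1. That of Slc38a2 was -0.016 with median-ratio scaling and -0.0054 without both replicate 2 libraries. With no filter on low values, Slc1a7, at 0.10 FPKM or less, passed an unadjusted p of 0.05 (adjusted p = 0.659, limma). The cause of these changes was not tested. Only 3 libraries per group and the unknown depth limit what could be seen.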
